A study of Homo sapiens with 15 samples.

Results

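H1299 cells that overexpressed wild-type p53 (WT) were compared with H1299 cells that received the control vector (Ctrl), with 3 RNA-seq libraries a group, all collected in 2023. These are 6 of the 15 libraries of the series, chosen by their titles, and the comparison covers 16156 tested genes of the 61552 Ensembl gene IDs counted. The other 9 libraries, collected in 2022, are labelled p53 (3), LLPSEp53_1 (3) and LLPSEp53_2 (3) and enter only 1 alternative fit. The question put to WT and Ctrl in the series' design is which genes p53 regulates. H1299 is a lung carcinoma line that lacks p53 of its own, and both groups share that background. The promoter of the construct, the way it was delivered and the time after delivery are not stated in the labels, and p53 from a vector may not match the level of p53 that a cell makes by itself. Nothing in the labels tells whether the 3 libraries of a group are separate cultures, and the p-values therefore cover only library-to-library spread, possibly technical.

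p53 is a transcription factor that works as a tetramer and binds pairs of short palindromic elements in promoters and enhancers. It is best known for turning on genes of cell cycle arrest, apoptosis, DNA repair and its own degradation, and most genes that fall after p53 activation are thought to do so indirectly, in particular through the cell cycle inhibitor p21 and the DREAM repressor complex. Its loss is common in lung carcinoma. Because the genes on a list of established targets were a small share of what moved here, the genes were sorted into 84 functional lists. These reach from ion channels to ribosome subunits.

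The libraries held 16208538 to 19228748 counts each, so that a count of 0 allows up to 0.156 to 0.185 CPM (library-scaled counts). The labelled cell line was checked against marker genes. The keratins KRT8 and KRT18 stood at 1374 to 1968 and 1021 to 1363 CPM and the mesenchymal filament VIM at 957 to 1109 CPM, while the epithelial genes KRT19, EPCAM and CDH1 reached at most 0.480 CPM in any library. NKX2-1, a lung epithelial factor, stood at 0.921 to 2.69 CPM, and no other lung marker passed 0.540 CPM. The summed markers of blood, vessel, muscle and liver cells came to 3.41 to 3.60 CPM in Ctrl and 3.88 to 5.26 CPM in WT, with the blood genes PTPRC and HBB at 0 in every library. Ctrl 1 stood apart in the share of counts from mitochondrial genes, 0.68% against 1.38% to 1.68% in the other 5 libraries.

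Rises outnumbered falls and were much larger. With edgeR's quasi-likelihood test and Benjamini-Hochberg adjustment, 665 genes (4.12% of those tested) passed an adjusted p of 0.05. Of these, 524 (3.24%) were higher in WT and 141 (0.873%) were lower. A gene could also be asked whether its 3 WT libraries all lie on one side of its 3 Ctrl libraries: 3627 genes (22.4%) met that, including each of the 665. Among the rises, 280 reached 2-fold and 66 reached 8-fold, though 2 of the rises had no Ctrl read and 16 had 1 to 3, and a fitted fold has no firm size there. Among the falls, 5 reached 2-fold and 106 stayed under 1.5-fold. The median log2 fold change over all genes tested was -0.01. The counts rest in part on single libraries: without WT 1 there were 321 rises and 35 falls, without Ctrl 3 there were 338 and 31, without WT 3 there were 427 and 33, and without Ctrl 2 there were 723 and 658. Each of 282 rises and 19 falls was called in all 6 fits that left out 1 library. In bulk RNA a higher share of cells that express a gene and more RNA per cell cannot be told apart.

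Most of the rises were not on the list of established p53 targets used here, which is not complete. Of 102 tested members of an established p53 target list, 58 rose and 0 fell, with a median log2 fold change of 0.50; the list was assembled with knowledge of p53 biology and is given as a check of the labels. CDKN1A, which encodes the cell cycle inhibitor p21, had 773, 786 and 715 CPM in the WT libraries and 231, 251 and 246 CPM in the Ctrl libraries. The 2 groups were far apart (log2 fold change 1.64, SE 0.11, edgeR adjusted p = 5.8e-09). The ligase MDM2, which marks p53 for destruction, had 299, 267 and 247 CPM in WT and 57.7, 61.1 and 57.6 CPM in Ctrl. The other 466 rises were not on that list, and 253 of them reached 2-fold. No list at all held 249 of the 524 rises. Further genes among the 30 largest rises were KLHL30 (31.5-fold), FAM13C (15.1-fold), the inducible heat shock protein HSPA6 (9.98-fold), TP53I11 (8.76-fold), the Snail family factor SNAI3 (6.19-fold), INSM2 (5.19-fold), MTUS2 (4.81-fold), the phosphodiesterase PDE3A (4.78-fold) and CRACDL (4.18-fold). Each of these 9 was called in all 6 fits without 1 library.

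Rises and falls began at different levels, though both were most numerous between 10 and 100 CPM. The mean Ctrl level was under 1 CPM for 134 of the 524 rises, 1 to 10 CPM for 152, 10 to 100 CPM for 225 and 100 CPM or more for 13. Of the 141 falls, 0 started under 1 CPM, 8 at 1 to 10 CPM, 83 at 10 to 100 CPM and 50 at 100 CPM or more. Among all 16156 genes tested the same 4 ranges held 1596, 4679, 7412 and 2469. Protein-coding genes made up 482 of the rises and 139 of the falls, out of 13178 tested. Long noncoding genes gave 23 rises and 1 fall of 1772 tested. Filtering and power both depend on level, so this order is a description of where calls were made. A gene near silent in Ctrl passed the filter through its WT reads and could only be called higher. In classes with many such genes, the shares of rises and the lack of falls given below are therefore partly set by the filter.

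**Figure D1:**
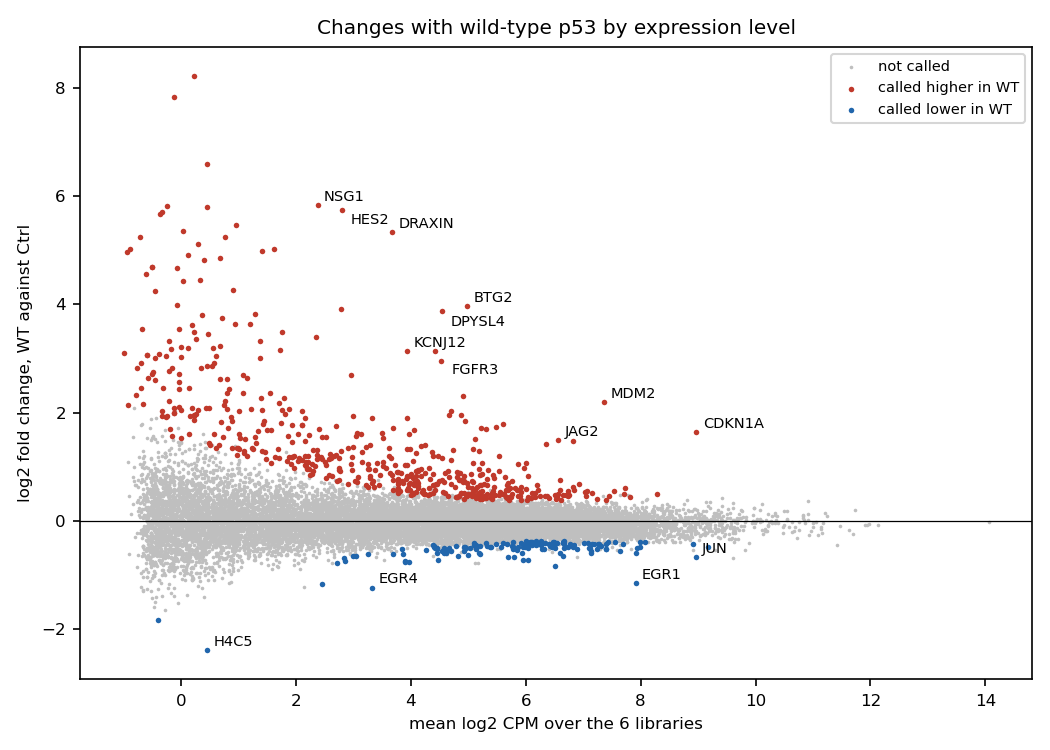
Each point is 1 tested gene, with its mean log2 CPM over the 6 libraries on the x axis and its log2 fold change, WT against Ctrl, on the y axis. Red points are the rises and blue points the falls called at an edgeR adjusted p of 0.05, and the overexpressed gene is not drawn. The rises reach far higher at low levels, whereas falls of 2-fold or more number 5.

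Genes of axon guidance were among the most often raised. This class holds the cues and receptors that steer growing axons and that many other tissues use to move and space cells. Of 67 tested members 12 rose (17.9%) and 0 fell, beside 3.24% over all genes, and 9 of the 12 were called in all 6 fits without 1 library. The median of the class was -0.01, the same as over all genes, so the rises were a minority of its members. Once the trend with the GC content of transcripts was removed, the median was 0.08, with 23 members below 0 instead of 34. They took in secreted cues, membrane ligands, receptors and an intracellular effector.

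DRAXIN (chr1:11691729-11725857, plus strand, GRCh38, as GENCODE 29 places it), a secreted repellent of commissural axons, had 25.9, 26.3 and 21.8 CPM in WT and 0.473, 0.506 and 0.814 CPM in Ctrl. It was close to silent in each Ctrl library (log2 fold change 5.34, SE 0.22, adjusted p = 1.53e-12). DPYSL4, a collapsin response mediator protein that acts inside the cell downstream of semaphorins, had 50.6, 42.9 and 36.8 CPM in WT and 3.55, 2.81 and 2.55 CPM in Ctrl. EFNB1, a membrane-bound ephrin, rose from 15.8, 17.7 and 18.8 CPM to 62.9, 56.7 and 51.5 CPM. PLXNB3, a semaphorin receptor, rose from 0.118, 0.281 and 0.488 CPM to 5.56, 4.39 and 3.12 CPM. In none of these 4 genes did the groups overlap. NTN1, the secreted cue netrin 1, rose 4.06-fold, and RGMA, a ligand of neogenin, rose 7.54-fold. EPHB4, a receptor of B-type ephrins, moved from high levels: 158, 138 and 160.3 CPM in Ctrl and 232, 216 and 214 CPM in WT, a 1.45-fold rise. The other 5, named after their values were seen, were SEMA4D, EFNA1, SLIT2, EPHB3 and the netrin receptor UNC5A, with rises of 1.94, 1.78, 1.67, 2.11 and 2.92-fold.

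Ion channels and transmitter receptors, which set the electrical state of excitable cells, rose in a few members, mostly from low levels. Of 46 tested potassium channels 7 rose (15.2%) and 0 fell, and 6 of the 7 held in all 6 fits without 1 library. KCNJ12, an inward rectifier, had 30.6, 28.9 and 22.8 CPM in WT and 2.01, 3.71 and 3.58 CPM in Ctrl (log2 fold change 3.13, SE 0.20, adjusted p = 1.08e-09). KCNJ3, KCNF1 and KCNK13 rose 4.07, 2.21 and 2.26-fold. KCNS2, an electrically silent subunit, had 113 reads over the WT libraries and 3 over the Ctrl libraries, a ratio of 40.0 with a 95% counting interval of 13.3 to 197. The intervals given for such ratios cover counting error only, and reads without molecular identifiers are not independent molecules. The class as a whole did not shift: its median was -0.04, with 22 members above 0 and 24 below.

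SCNN1G, a subunit of the epithelial sodium channel that is outside the channel lists, had 41 WT reads and 1 Ctrl read. The ratio was 43.5 (7.38 to 1759.7), and SCNN1G was called higher in all 6 fits without 1 library. Among 53 listed calcium, sodium, chloride and TRP channel genes 5 rose and 0 fell. SCN3B, an accessory subunit of sodium channels, had 29.5, 26.0 and 20.1 CPM in WT against 6.92, 9.45 and 7.32 CPM in Ctrl, and ANO4, an anoctamin, rose 2.32-fold. Only these 2 of the 5 were called in all 6 fits without 1 library, and the count was 2 without Ctrl 3 or WT 1 and 3 without WT 2 or WT 3. Of 35 neurotransmitter receptors 5 rose (14.3%), 3 with a minimum mean log2 CPM of 1, and 0 fell. They included the NMDA receptor subunits GRIN3B (3.37-fold) and GRIN2C (5.43-fold), the muscarinic receptor CHRM4 (2.30-fold) and the acetylcholine receptor subunit CHRND. CHRND had 98 WT reads and 3 Ctrl reads, a ratio of 34.7 (11.5 to 171).

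The listed synaptic vesicle genes gave few calls: of 42 tested, NSG1 rose and STX1A fell. Outside that list SLC18A3, the vesicular acetylcholine transporter, and DOC2B, a calcium sensor of vesicle release, were called higher. Both of these rises held in all 6 fits without 1 library. NSG1 (chr4:4348140-4419058, plus strand), a neuronal protein of endosomes that handles receptor recycling, had 10.9, 9.44 and 9.94 CPM in WT and 0.118, 0.338 and 0.0542 CPM in Ctrl. STX1A, a syntaxin of the release machinery, had 63.8, 69.5 and 56.7 CPM in WT and 81.3, 89.1 and 86.3 CPM in Ctrl. The fall of STX1A was called in 3 of the 6 fits without 1 library. It was not called once the trend with the GC content of transcripts was removed (log2 fold change -0.26, edgeR adjusted p = 0.277). In that fit 2 genes of the list were called higher and 0 lower. Another 15 rises that code for synapse scaffolds and neuronal surface proteins were grouped after their values were seen, so their shared direction was fixed by the choice. Of these, 12 held in all 6 fits without 1 library. Among them ACHE, which breaks down acetylcholine, rose from 7.74, 9.68 and 9.38 CPM to 22.9, 23 and 21.1 CPM. INSYN1, an inhibitory synapse protein, rose 4.49-fold, the cell adhesion molecule NRCAM 3.22-fold and the kinase subunit CAMK2B 4.62-fold. HEPACAM, a glial adhesion molecule, had 43 WT reads and 1 Ctrl read.

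**Figure D2:**
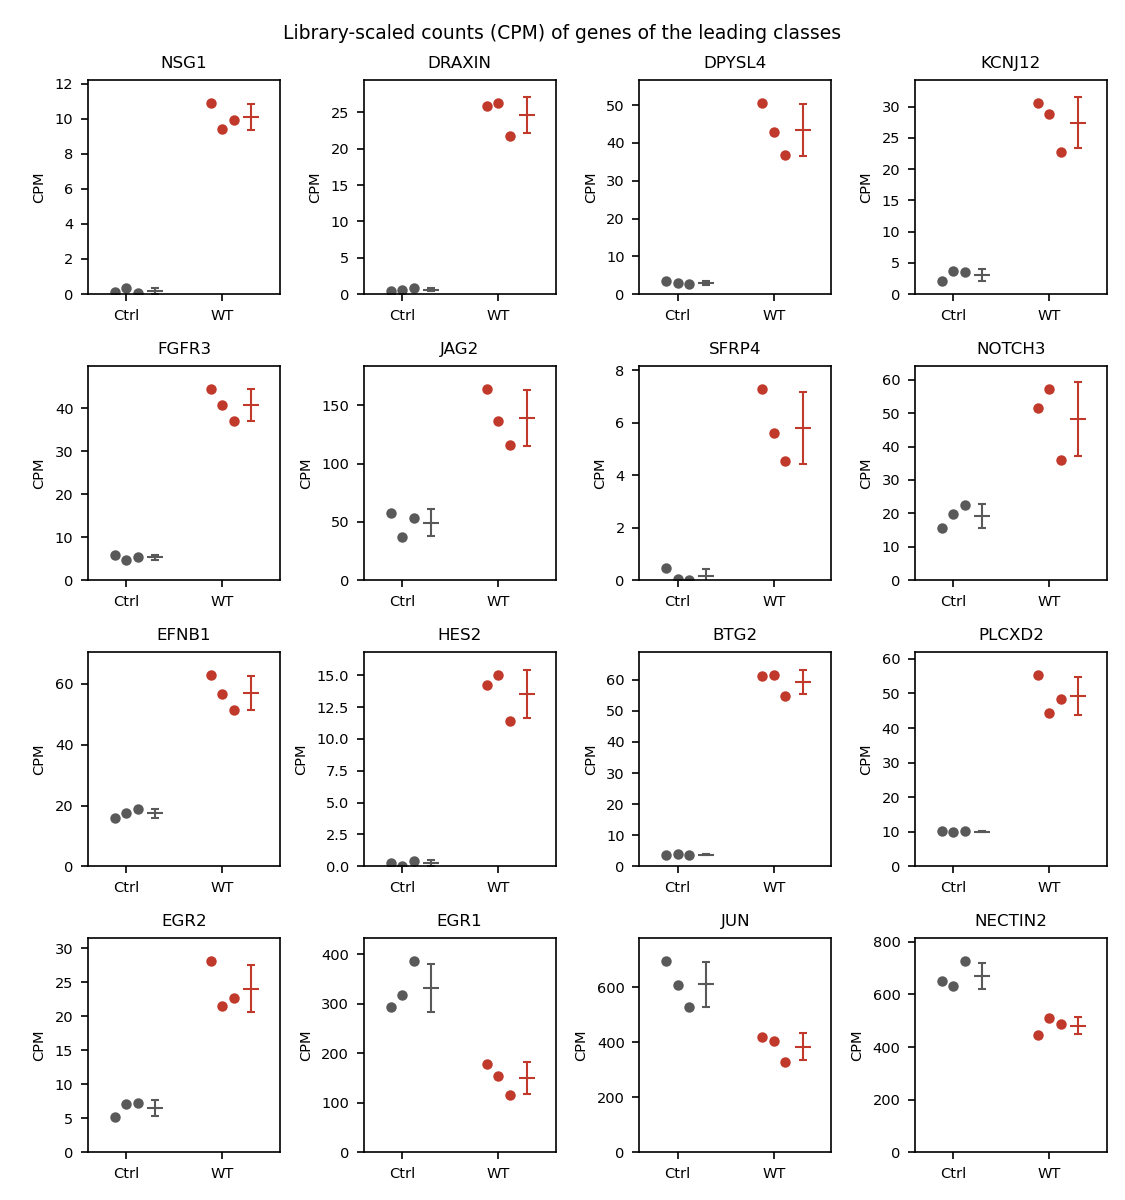
Each panel shows 1 gene, with CPM on a linear y axis from 0. The 3 Ctrl libraries are grey points and the 3 WT libraries red points, and the dash with its bar to the right of each group is the mean with its SD. In no panel do the groups overlap: 13 genes are higher in WT, and EGR1, JUN and NECTIN2 are lower. Ctrl levels of the 13 differ widely, with NSG1 at 0.0542 to 0.338 CPM and JAG2 at 36.7 to 57.9 CPM as examples.

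Some classes of signals between cells also had a larger share of rises than all genes, though a minority of their members was called. Median log2 fold changes were 0.07 for the TGF-beta superfamily, 0.08 for WNT genes, -0.04 for the Notch pathway and 0.11 for growth factors. With the GC trend removed these medians were 0.04, 0.13, 0.1 and 0.02. Of 47 listed ligands, receptors and modulators of the TGF-beta superfamily, 8 rose (17.0%) and 0 fell, and 32 of 47 lay above 0 (median 0.07). The superfamily governs growth arrest and patterning. AMH, a ligand of it outside the list, was called lower, a call made in 1 of the 6 fits without 1 library. With the GC trend removed AMH was not called (log2 fold change -0.13, edgeR adjusted p = 0.686). GDF15, a stress hormone of this family, had 155, 186 and 157 CPM in WT and 43.6, 74.2 and 60.4 CPM in Ctrl. TGFBR1, the type I receptor, rose from 22.2, 24.0 and 24.4 CPM to 47.6, 40.6 and 39.7 CPM. SMAD5, which carries the BMP signal to the nucleus, rose 1.48-fold, and SMAD7, which blocks the receptor, rose 1.40-fold, a rise called in 2 of the 6 fits without 1 library. INHBB, an activin subunit, had 83 WT reads and 7 Ctrl reads, a ratio of 12.6 (5.84 to 32.3). BMP8A, GDF6 and GDF9 rose 2.91, 2.14 and 1.93-fold. The count fell to 5 without Ctrl 3 and to 5 without WT 1.

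Of 30 WNT ligands and modulators 5 rose (16.7%) and 0 fell. They included 3 ligands, WNT4 (8.92-fold), WNT7B (4.20-fold) and WNT11 (9.39-fold), and 2 secreted antagonists, SFRP4 and DKK2 (5.52-fold). WNT4 had 5.50, 5.11 and 6.65 CPM in WT and 0.591, 0.394 and 0.922 CPM in Ctrl. SFRP4 had 297 WT reads and 9 Ctrl reads, a ratio of 35.0 (18.2 to 77.3), and 1 of the 3 Ctrl libraries had none. Agonists and antagonists of the pathway thus rose side by side.

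In the Notch pathway 4 of 30 genes rose (13.3%) and 1 fell, and the 4 rises held in all 6 fits without 1 library. JAG2 (chr14:105140981-105168824, minus strand), a Notch ligand, had 164, 137 and 116 CPM in WT and 57.9, 36.7 and 53.7 CPM in Ctrl. The receptor NOTCH3 had 51.4, 57.2 and 35.9 CPM in WT and 15.5, 19.9 and 22.6 CPM in Ctrl, and NOTCH1 rose 1.66-fold. HES2, a repressor of the HES family, had 14.2, 15 and 11.4 CPM in WT and 0.296, 0 and 0.434 CPM in Ctrl. HES1, the family member best known as a readout of Notch activity, was called lower, with 18.4, 15.1 and 22.3 CPM in WT and 32.2, 27.0 and 23.8 CPM in Ctrl (adjusted p = 0.0329). The fall of HES1 was called in 2 of the 6 fits without 1 library, and not once the trend with GC content was removed, although its log2 fold change was -0.57 before and -0.53 after (adjusted p = 0.0856).

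Growth factors gave 5 rises of 29 (17.2%) and 0 falls. KITLG, the ligand of the receptor KIT, rose from 13.9, 13.2 and 13.3 CPM to 30.9, 22.7 and 25.4 CPM. The EGF receptor ligands AREG and TGFA rose 3.62 and 1.34-fold, FGF18 rose 2.53-fold and ANGPT4 2.64-fold. The count was 2 without Ctrl 3, without WT 1 or without WT 2, and 3 without Ctrl 1 or without WT 3. Among receptor tyrosine kinases 3 of 31 rose. FGFR3, a fibroblast growth factor receptor, had 44.5, 40.9 and 37.1 CPM in WT and 5.79, 4.67 and 5.42 CPM in Ctrl, while RET and ROR1 rose 2.22 and 1.66-fold and were each lost in several of the fits without 1 library. Chemokines and cytokines gave no call in 35 tested. The 2 with the smallest p were LIF, at 44.7, 45.5 and 29.8 CPM in WT and 23.9, 32.2 and 29.3 CPM in Ctrl (adjusted p = 0.0753), and IL7 (adjusted p = 0.123). Over that class, 2 genes had an unadjusted p under 0.05, both higher, and DESeq2 called none. With the GC trend removed, with no filter on low counts or without WT 3, 1 gene was called higher. Without Ctrl 2 or with a block for the replicate number 2 were, and 1 was called lower without Ctrl 1.

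A further 10 hormone, peptide and morphogen genes or their receptors were grouped after their values were seen. IHH, a hedgehog ligand, had 185 WT reads and 4 Ctrl reads, a ratio of 49.1 (18.8 to 182). PROKR1, a prokineticin receptor, had 93 and 2, a ratio of 49.3 (13.3 to 413). The neuropeptide ADCYAP1 rose 3.64-fold and its receptor ADCYAP1R1 had 91 WT reads and 4 Ctrl reads. GDNF, a neurotrophic ligand of RET, rose from 5.85, 5.18 and 4.45 CPM to 15, 10.0 and 12.3 CPM. ADCYAP1 and GDNF were thus each called higher together with a receptor, RET in the case of GDNF. RET was called in 2 of the 6 fits without 1 library. Such pairs were not confined to these 10 genes, as JAG2 rose together with NOTCH1 and NOTCH3.

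Inside the cell, enzymes that cut or rebuild phosphoinositides gave 6 rises and 1 fall of 71 tested (8.45% higher), and all 6 rises held in the 6 fits without 1 library. PLCXD2, a phospholipase C-like protein, had 55.3, 44.5 and 48.3 CPM in WT and 10.1, 9.96 and 10.1 CPM in Ctrl (log2 fold change 2.30, SE 0.13, adjusted p = 2.07e-10). PLCD1 and PLCL2, other phospholipase C family genes, rose 2.50 and 2.02-fold. PIK3R1, the regulatory subunit of PI3-kinase, rose from 22.8, 27.9 and 23.3 CPM to 50.4, 45.6 and 47.3 CPM. INPP5D (chr2:233059967-233207903, plus strand) encodes the phosphatase SHIP1, usually found in blood cells. It had no read in any Ctrl library and 34, 44 and 32 reads in WT, at least 31.1-fold higher by the exact 95% limit of the ratio of rates. The blood cell gene PTPRC was at 0 in all 6 libraries.

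RGL1 and RALGDS, exchange factors for Ral, rose 2.26 and 2.48-fold, RASAL1, which switches Ras off, rose 7.07-fold and DOCK8, an exchange factor for CDC42, rose 2.42-fold. DOCK8-AS1, also called higher, is an antisense transcript at DOCK8, and without a known strand setting reads of the pair cannot be told apart. G protein-coupled receptors outside the transmitter list gave 7 rises of 88 (7.95%) and 0 falls. They included the sphingosine 1-phosphate receptor S1PR3 (81 WT reads and 10 Ctrl reads) and the purine receptor P2RY1, which rose 1.70-fold. That count was 3 without Ctrl 3, WT 1 or WT 3 and 4 without WT 2. SPRY1, a brake on receptor tyrosine kinase signalling, rose from 5.38, 5.91 and 5.26 CPM to 20.4, 16.9 and 13.6 CPM, while its relative SPRY2 was 1.32-fold lower (adjusted p = 0.0318). RRAD, a small GTPase of the RGK family, had 132, 114 and 114 CPM in WT and 56.6, 34.8 and 42.7 CPM in Ctrl.

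Matrix and adhesion genes moved in a few members. Collagens gave 5 rises of 24 (20.8%) and 0 falls, but COL15A1 alone was called in all 6 fits without 1 library. The count was 1 without WT 1, 2 without Ctrl 3, and 3 without WT 2 or without WT 3, and DESeq2 called 3 higher and 1 lower. With a minimum mean log2 CPM of 1 it was 1. COL15A1, a basement membrane collagen, had 69 WT reads and 1 Ctrl read, a ratio of 73.2 (12.7 to 2933). COL27A1, a fibrillar collagen, had 24.4, 22.1 and 17.2 CPM in WT and 11.4, 14.1 and 15.2 CPM in Ctrl. Other matrix proteins gave 1 rise and 1 fall of 44, and 36 of the 44 lay below 0. VCAN, a large proteoglycan, rose from 13.7, 17.8 and 14.2 CPM to 43.4, 35.9 and 33.6 CPM, and the laminin chain LAMB3 was 1.36-fold lower. Nectins, which are adhesion receptors of cell junctions, split: NECTIN4 (6.57-fold) and NECTIN1 (1.67-fold) were higher, and NECTIN2 was lower at 445, 511 and 489 CPM in WT against 653, 632 and 726 CPM in Ctrl. The fall of NECTIN2 was not called after removal of the GC trend, with a log2 fold change of -0.48 before and -0.30 after. Cadherins and protocadherins, with 44 tested, gave no call. The smallest p in that class belonged to CELSR3 (adjusted p = 0.0692), 4 genes were higher and 6 lower at an unadjusted p under 0.05, and DESeq2 called 1 higher.

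Another 8 rises were genes of epidermis or epithelial barriers, again grouped after their values were seen. PADI3, a peptidylarginine deiminase of hair and skin, rose 9.20-fold. CLCA2, a regulator of chloride conductance, had 66 WT reads and 8 Ctrl reads. FERMT1, the integrin activator kindlin 1, rose from 27.6, 28.4 and 26.9 CPM to 42.4, 41.2 and 39.8 CPM, and the noncoding RNA TINCR rose 2.02-fold. Of the 8, 3 held in all 6 fits without 1 library. Keratins, with 8 tested, and tetraspanins, with 21, gave no call in edgeR or DESeq2, with 1 and 3 genes at an unadjusted edgeR p under 0.05.

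Transcription factors of several families were called in both directions, with more rises than falls in each family listed here. Of 101 homeobox genes, with their POU, LIM and PAX families, 12 rose (11.9%) and 1, HOXB2, fell, a call made in 1 of the 6 fits without 1 library and lost with the GC trend removed. Of the 12 rises, 10 held in all 6 fits without 1 library. The median of the class was 0.01, and 0.12 with the GC trend removed. With a minimum mean log2 CPM of 1 the class had 5 rises. LHX3, a LIM factor of motor neurons and pituitary, had 149 WT reads and 5 Ctrl reads, a ratio of 31.6 (13.3 to 98.8). NKX2-5, a cardiac factor, had 29.5, 27.7 and 29.5 CPM in WT and 14.1, 8.50 and 13.5 CPM in Ctrl. POU3F1, a factor of Schwann cells and neurons, rose 11-fold, with its Ctrl libraries at 0.113 to 0.296 CPM. HOXC13, a factor of hair and nail, rose 2.39-fold, and its antisense neighbour HOXC13-AS rose 8.27-fold, with the same limit on strand. The tissues in which these genes are best known have little in common.

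FOX, SOX, GATA and TBX genes, listed together with the KLF family, gave 7 rises (10.4%) and 3 falls of 67. SOX7 rose 5.13-fold, SOX21 5.17-fold and TBX2 1.70-fold, while GATA6, KLF10 and KLF4 were lower. Without WT 1 there were 4 rises, and without WT 3 there was no fall. In the basic helix-loop-helix family 4 of 39 rose and 3 were lower. NEUROG3, a master factor of endocrine pancreas, had 68 WT reads and 1 Ctrl read, a ratio of 72.2 (12.5 to 2891), and NHLH2 had 120 and 4. The inhibitors of the family moved apart: ID2 rose from 13.1, 15.5 and 11.6 CPM to 34.4, 26.2 and 31.7 CPM, and ID1 was lower at 109, 127 and 127 CPM in WT against 168, 174 and 146 CPM in Ctrl. The falls of ID1 (2 of 6), HES1 (2 of 6) and BHLHE41 (1 of 6) were each called in few of the fits without 1 library. Among 15 other factors grouped after their values were seen, EN2, a homeobox factor of the midbrain, rose from 11.1, 8.22 and 11.2 CPM to 50.8, 34.5 and 38.3 CPM, ONECUT2 rose 2.90-fold and EOMES 6.50-fold. RAX, a homeobox factor of the eye that is on none of these lists, was called lower, at 0.229, 0.180 and 0.412 CPM in WT and 0.946, 1.41 and 0.651 CPM in Ctrl, and in 0 of the 6 fits without 1 library.

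Zinc finger genes of the ZNF series, the largest list with 500 tested, gave 20 rises (4.0%) and 13 falls (2.60%) around a median of -0.03. Of these, 8 rises and 1 fall held in all 6 fits without 1 library, and the rises numbered 33 without Ctrl 2, 10 without Ctrl 3 and 9 without WT 1. ZNF296 rose from 24.4, 27.6 and 31.8 CPM to 68.2, 60.3 and 64.6 CPM, ZNF654 rose 2.09-fold, and ZNF385A, which binds p53, rose 2.45-fold. ZNF668, the fall that held, had 10.1, 11.3 and 11.5 CPM in WT and 20.9, 16.5 and 18.4 CPM in Ctrl. After removal of the GC trend 16 genes of the list were called higher and 1 lower. Chromatin enzymes and remodellers gave 0 rises and 1 fall of 120, the demethylase KDM6B at 1.44-fold lower. With the GC trend removed that class had 4 rises and 0 falls, and without Ctrl 2 it had 0 and 7.

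Transporters and enzymes moved in scattered members. Solute carriers gave 8 rises of 241 (3.32%) and 0 falls, close to the share of rises over all genes; without Ctrl 2 there were 9 rises and 14 falls. They included the zinc exporter SLC30A1, from 47.5 ± 3.05 CPM (SD, n = 3) in Ctrl to 73.1 ± 6.96 CPM (SD, n = 3) in WT, and the manganese exporter SLC30A10, with 113 WT reads and 8 Ctrl reads. SLC18A3, the vesicular acetylcholine transporter, rose 6.15-fold, and together with ACHE, CHRND and CHRM4 it made 4 raised genes of cholinergic signalling, a set noticed after the values were seen. Among pumps, the drug exporter ABCG2 rose 2.33-fold and the sterol exporter ABCG4 11.3-fold. Of 26 genes of ferroptosis and iron handling 4 rose (15.4%) and 0 fell. FDXR, a mitochondrial ferredoxin reductase, rose from 21.3, 19.9 and 20.4 CPM to 66.1, 73.3 and 65.9 CPM, STEAP2, a metalloreductase, rose 1.75-fold, GLS2, a glutaminase, 5.93-fold and ISCU, the iron-sulfur scaffold, 1.35-fold. Without Ctrl 3 that count was 2. The lipid enzymes LPIN3, a phosphatidate phosphatase, and ACER2, a ceramidase, rose 2.11 and 2.47-fold.

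Among genes that act for or against cell death, calls were mostly rises on both the receptor side and the mitochondrial side. Of 35 genes of the BCL2 family and apoptosis effectors 9 rose (25.7%) and 1 fell, and of 18 TNF receptor family genes 5 rose (27.8%) and 2 fell. Many members of both are textbook targets. The falls of TNFRSF8 and TNFRSF9 were called in 3 and 1 of the 6 fits without 1 library. PIDD1, a platform for caspase 2, and BCL2L11, the killer BIM, rose 1.89 and 1.71-fold. NGFR, the low-affinity neurotrophin receptor with a death domain, had 6.59, 4.33 and 4.88 CPM in WT and 0.532, 1.63 and 1.63 CPM in Ctrl. The caspases split. CASP6, an executioner, had 21.7, 17.6 and 19.4 CPM in WT and 13.5, 11.6 and 11.1 CPM in Ctrl, while CASP9, the initiator that binds APAF1, was lower, with 20.8 ± 1.17 CPM (SD, n = 3) in WT and 30.9 ± 0.448 CPM (SD, n = 3) in Ctrl. APAF1 itself rose 3.44-fold. The fall of CASP9 held in all 6 fits without 1 library and after removal of the GC trend (adjusted p = 0.00526 in the edgeR test as reported).

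Few proliferation genes were called. Of 50 genes of G1/S and DNA replication 2 rose, PCNA (1.47-fold) and E2F7 (1.39-fold), and 0 fell; E2F7 was called in 2 of the 6 fits without 1 library and not after removal of the GC trend (adjusted p = 0.0651). Of 59 genes of G2/M and mitosis, the programme that the DREAM complex represses, 0 rose and 1 fell. That gene was CDC25B, a phosphatase that starts mitosis, at 227, 237 and 232 CPM in WT and 303, 280.2 and 332 CPM in Ctrl. Its fall was called in 1 of the 6 fits without 1 library and not after removal of the GC trend, where its log2 fold change went from -0.39 to -0.22. At an unadjusted p under 0.05 the G2/M list had 2 genes higher and 3 lower, with a median of -0.01 that ran from -0.12 to 0.12 over the fits without 1 library. Without Ctrl 2, 9 genes of the G1/S list and 6 of the G2/M list were called lower. Among cell cycle regulators outside these lists, picked after the values were seen, the germline cyclin CCNA1 rose from 13.8, 13.6 and 15.6 CPM to 33.6, 29 and 33.5 CPM, RB1 rose 1.31-fold and the CDK-inhibiting kinase WEE1 1.35-fold. Of the 5 picked, 2 held in all 6 fits without 1 library, CCNA1 among them. RB1 and WEE1 were each called in 2 of those fits and not after removal of the GC trend. All 5 were picked among the rises, so their shared direction was fixed by the choice. FZR1 and DBF4B, cell cycle regulators also outside these lists, were called lower. Each of these 2 falls was called in 2 of the 6 fits without 1 library and not after removal of the GC trend.

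Large housekeeping lists gave no call. They held 47 proteasome subunits, 92 nuclear-encoded respiratory chain subunits, 76 mitochondrial ribosome genes and 44 genes of ribosome biogenesis. Also among them were 99 translation factors and aminoacyl-tRNA synthetases and 76 splicing factors. The lists are not complete: NOL6, TBL3 and TAF1C, genes of ribosome or rRNA synthesis outside them, were called lower. These falls were called in 2, 1 and 2 of the 6 fits without 1 library, and not after removal of the GC trend. In edgeR's test at an unadjusted p under 0.05, 9 genes of the respiratory chain were higher and 4 lower, 6 and 2 of the mitochondrial ribosome, 1 and 7 of ribosome biogenesis, 2 and 7 of translation, 3 and 4 of splicing, and 0 and 2 of the proteasome. DESeq2 called 1 translation gene lower and none in the other 5 classes. Of 83 cytosolic ribosomal proteins RPS27L, an established p53 target, rose 2.10-fold and RPS29 rose 1.47-fold. RPS29 had 134, 133 and 209 CPM in WT and 99.4, 119.6 and 106 CPM in Ctrl, with WT 3 the highest. The 13 mitochondrially encoded mRNAs had a median of 0.35 with 12 above 0 and no call; without Ctrl 1, the library with the low mitochondrial share, the median was -0.05 with 9 below 0.

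**Figure D3:**
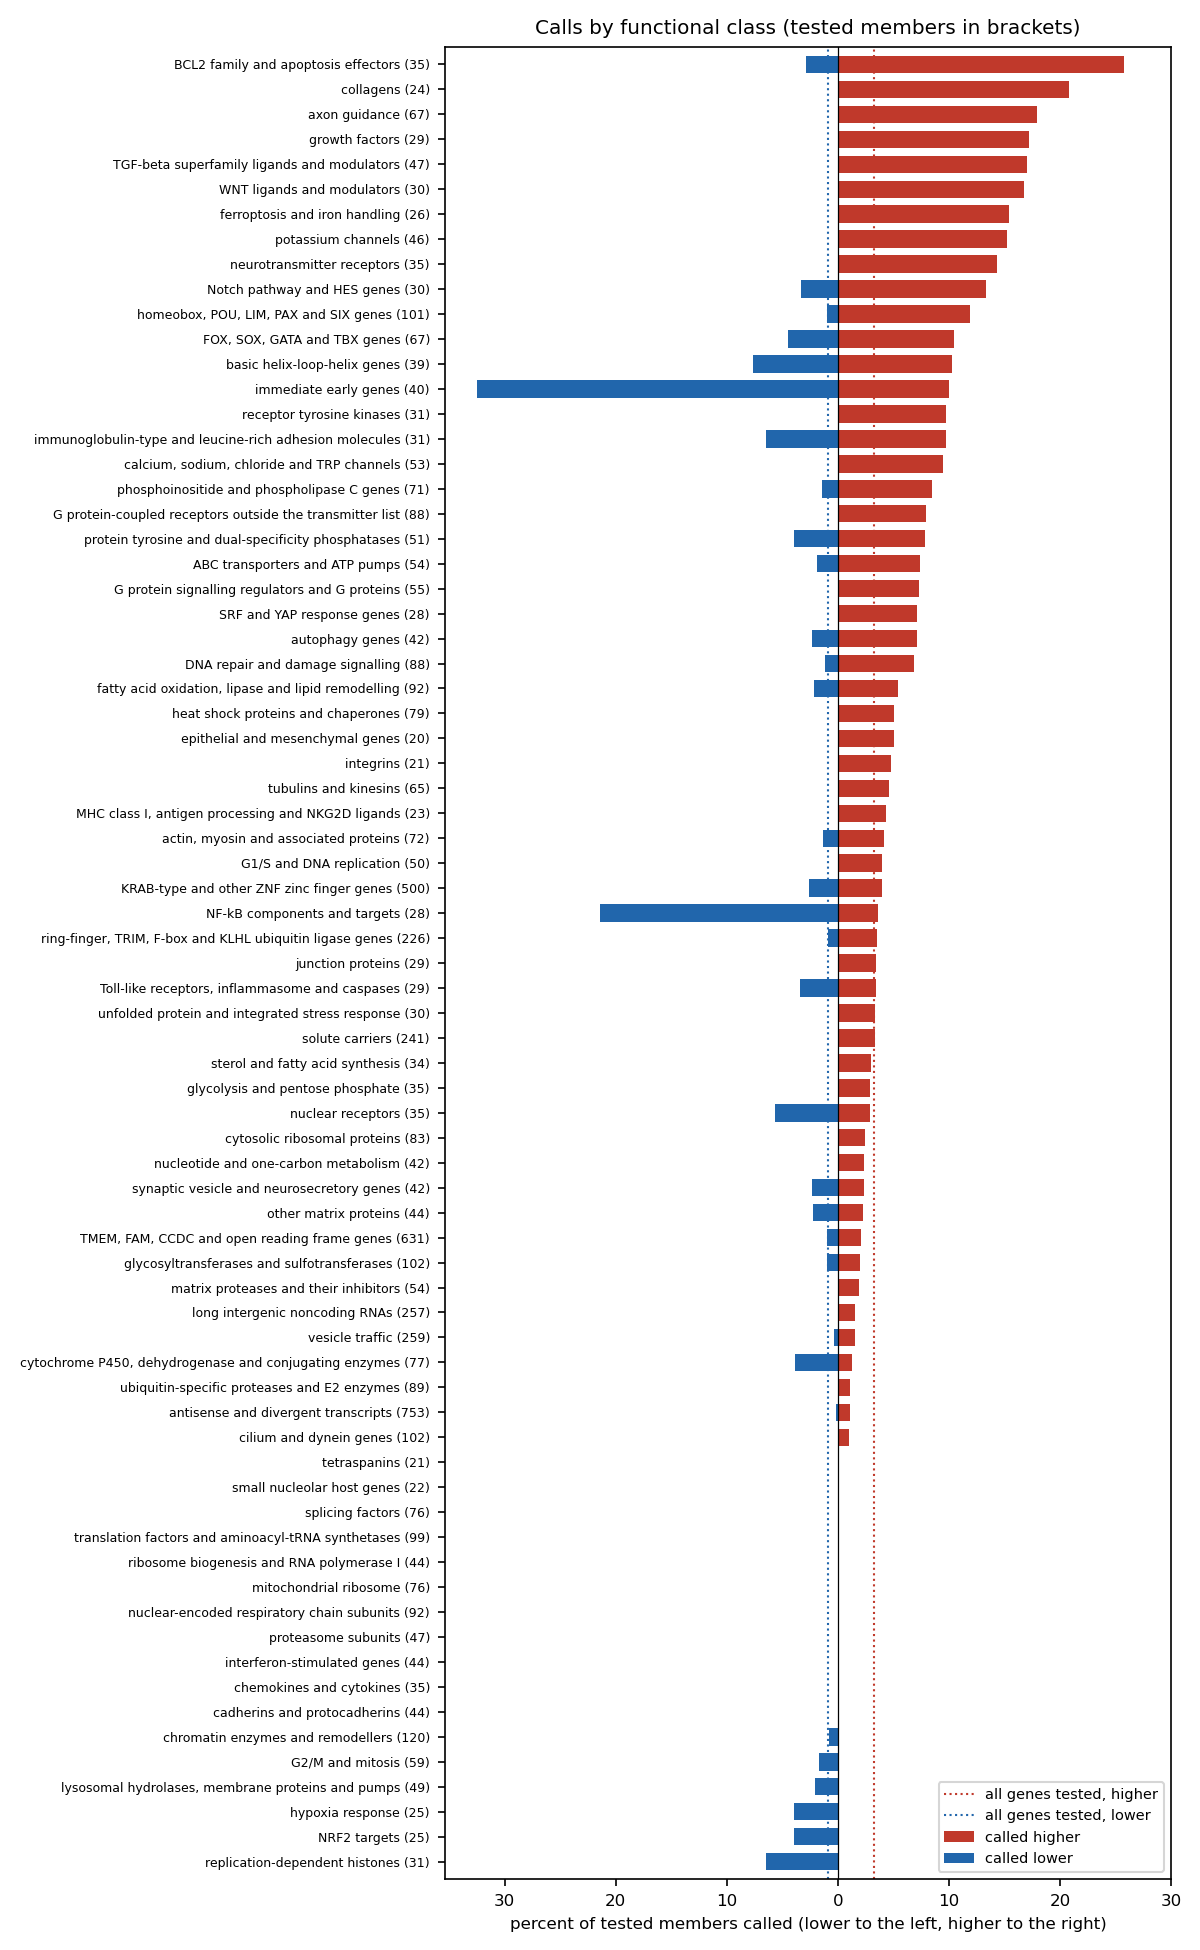
Each row is a functional class with at least 20 tested members (number in brackets), with the percent of members called higher to the right in red and called lower to the left in blue, on a linear axis. Dotted lines mark 3.24% higher and 0.873% lower over all genes tested, and the established p53 target list and 1 other class are left out. BCL2 family, collagen and axon guidance genes lie at the top, immediate early and NF-kB genes extend far to the left, and proteasome, respiratory chain and splicing classes show no bar.

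Among the classes with at least 20 tested members, the share of falls was highest in immediate early genes, the transcription factors and feedback inhibitors that growth factor and stress signals switch on within minutes. Of 40 tested members 13 fell (32.5%) and 4 rose (10.0%), with a median of -0.33 and 32 of 40 below 0. Of the 13 falls, 9 held in all 6 fits without 1 library and 10 after removal of the GC trend, with which the median of the list went to -0.17. Summed over the list, the WT libraries had 6612, 6044 and 5968 CPM and the Ctrl libraries 7837, 7301 and 7614 CPM, with no overlap. The fit that shared its spread with all 15 libraries called none of these falls and 3 rises.

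EGR1 (chr5:138465490-138469315, plus strand), a zinc finger factor induced by serum, had 179, 155 and 115 CPM in WT and 294, 317 and 386 CPM in Ctrl (log2 fold change -1.15, SE 0.14, adjusted p = 2.58e-05). Its relative EGR4 had 6.25, 6.97 and 4.47 CPM in WT and 18.2, 11.7 and 11.9 CPM in Ctrl. The AP-1 subunit JUN had 420, 404 and 328 CPM in WT and 694, 609 and 529 CPM in Ctrl, and FOS and FOSB were 1.65 and 1.79-fold lower. The nuclear receptors NR4A1 and NR4A2 were 1.51 and 1.65-fold lower. CSRNP1, a nuclear protein induced by AXIN1, had 42.5, 45 and 40.5 CPM in WT and 76.3, 67.8 and 60.5 CPM in Ctrl. NAB2, a corepressor of EGR factors, and DUSP1, a phosphatase of MAP kinases, were 1.57 and 1.41-fold lower. After removal of the GC trend neither passed the threshold, with log2 fold changes of -0.45 and -0.38 (adjusted p = 0.0516 and 0.147), and DUSP1 was called in 1 of the 6 fits without 1 library.

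Exceptions within the same list went the other way. EGR2, a close relative of EGR1, had 28.1, 21.5 and 22.7 CPM in WT and 5.14, 7.09 and 7.21 CPM in Ctrl (log2 fold change 1.89, SE 0.16, adjusted p = 1.83e-07). ARC, a gene of synaptic plasticity, had 18.6, 10.5 and 10.8 CPM in WT and 3.19, 1.46 and 1.57 CPM in Ctrl. ATF3, a stress factor that pairs with JUN, rose 1.41-fold, from 197, 168 and 154 CPM to 261, 240.3 and 231 CPM. BTG2, an antiproliferative p53 target, rose 15.6-fold. EGR3 was not called, with 2.41, 1.80 and 1.53 CPM in WT and 2.42, 3.38 and 3.09 CPM in Ctrl (adjusted p = 0.247).

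**Figure D4:**
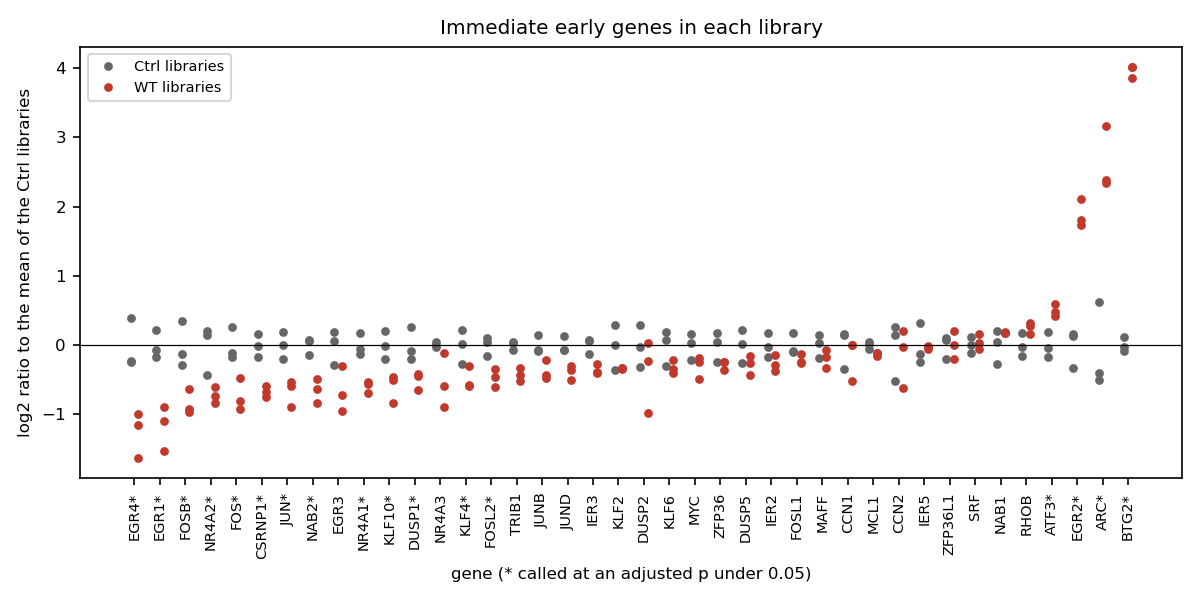
Each column is 1 tested immediate early gene, ordered by log2 fold change, and an asterisk marks those called at an edgeR adjusted p of 0.05. The y axis is the log2 ratio of a library's CPM to the mean of the 3 Ctrl libraries, with Ctrl libraries in grey and WT libraries in red. Most genes from EGR4 onward lie below 0 in WT, while ATF3, EGR2, ARC and BTG2 lie above the Ctrl libraries.

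NF-kB components and targets were the other class with many falls: 6 of 28 (21.4%) fell and 1 rose, with a median of -0.19. NFKBIA, the inhibitor that holds NF-kB in the cytoplasm, had 47.2, 55.4 and 59.9 CPM in WT and 77.4, 77.0 and 77.2 CPM in Ctrl. NFKB2, a precursor subunit, had 398, 413 and 411 CPM in WT and 598, 487 and 573 CPM in Ctrl. BCL3, a nuclear cofactor, and the adaptor TRAF1 were 1.5 and 1.43-fold lower. NFKB2 was called in 1 of the 6 fits without 1 library. After removal of the GC trend NFKBIA and TRAF1 were still called, but NFKB2 and BCL3 were not (edgeR adjusted p = 0.292 and 0.178). Members of this class act for and against the pathway. The count was 10 without Ctrl 2, 4 without Ctrl 1, 3 without Ctrl 3, WT 2 or WT 3, 1 without WT 1, and 2 after removal of the GC trend.

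The listed interferon-stimulated genes leaned one way without a call. All 44 tested lay below 0, with a median of -0.34, and 12 had an unadjusted p under 0.05. Neither edgeR nor DESeq2 called any at an adjusted p of 0.05, and edgeR with no filter on low counts called 17 lower. Summed over the list, WT had 10734, 16521 and 13015 CPM and Ctrl had 12840, 20971 and 14791 CPM. The groups overlapped, and library 2 was the highest in both. IRF7, the factor that amplifies the interferon response, had the smallest p of the class, with 65.2, 130.3 and 79.6 CPM in WT and 115, 191 and 135 CPM in Ctrl (adjusted p = 0.0524). The size of the lean moved with single libraries. Without Ctrl 2 the median was -0.02 and 24 of 44 lay below 0. Without Ctrl 1 the median was -0.57 and 20 were called lower, and without WT 2 it was -0.64 with 11 called lower. LY6E, an interferon-stimulated gene outside the list, was called lower, a call made in 2 of the 6 fits without 1 library. It was not called after removal of the GC trend (log2 fold change -0.23, edgeR adjusted p = 0.481).

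Smaller sets of falls had few members. Both called histone genes of 31 replication-dependent ones encode histone H4. H4C5 had 0.344, 0.481 and 0.353 CPM in WT and 2.19, 2.25 and 1.84 CPM in Ctrl, the fall with the largest fold among the 19 that held in all 6 fits without 1 library, and H4C8 was 1.67-fold lower. H4 genes are near copies of each other, so the assignment of reads among them is uncertain. The aryl hydrocarbon receptor targets CYP1A1 and CYP1B1 were 1.68 and 1.44-fold lower among 7 tested (log2 fold change -0.75 and -0.53). After removal of the GC trend the values were -0.66 and -0.58, and neither passed the threshold (adjusted p = 0.126 and 0.0506). MISP, a mitotic spindle protein, had 3.67, 3.37 and 2.82 CPM in WT and 6.74, 9.23 and 6.29 CPM in Ctrl. PER1, a clock repressor, had 45.3, 39.3 and 34.9 CPM in WT and 61.9, 59.7 and 68.4 CPM in Ctrl. The lysosomal enzyme NAGLU and the actin crosslinker ACTN2 were 1.56 and 1.54-fold lower.

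Falls, unlike rises, followed the base composition of the transcript. The median GC content of the longest transcript was 61.9% for the falls, 49.3% for the rises and 48.4% for all genes tested. When genes were split by GC into 5 bins of equal size, 0, 4, 9, 22 and 106 falls lay in the bins from lowest to highest, and 105, 100, 90, 98 and 125 rises. The libraries themselves differed in this way: the median log2 deviation of the highest bin was -0.15, -0.04 and -0.10 in WT and 0.11, -0.02 and 0.20 in Ctrl. With that trend removed, 524 genes were called higher and 28 lower. Of the 524 rises reported above 450 were still called, and of the 141 falls 24 were. Falls still called included EGR1, EGR4, JUN, FOS, FOSB, CSRNP1, NR4A1, NR4A2, CASP9, H4C5, H4C8, ZNF668, PER1, MISP and ACTN2. A lost call did not always come with a smaller fold: the log2 fold change of CYP1B1 was -0.53 as reported and -0.58 with the trend removed.

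Noncoding rises were few but included the host of a tumour suppressor miRNA. Of 257 long intergenic noncoding RNAs 4 rose (1.56%), and of 753 antisense and divergent transcripts 8 rose and 1 fell. The latter count of rises was 5 without Ctrl 1, 3 without Ctrl 3, 2 without WT 1 and 4 without WT 2. MIR34AHG, the host gene of miR-34a (chr1:9148011-9198906, minus strand), had 5.39, 4.75 and 3.12 CPM in WT and 0.709, 0.563 and 0.380 CPM in Ctrl. LNCTAM34A, which is transcribed from the opposite strand of the same locus, had 51 WT reads and 6 Ctrl reads, a ratio of 9.02 (3.87 to 25.7). Reads of the 2 genes cannot be told apart where they overlap, since the strand setting is not given.

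Promoter sequences of the raised genes were searched for the p53 consensus, read as 2 abutting elements of 10 bases. A match kept the CNNG core of each element and had at most 2 mismatches elsewhere; the consensus is its own reverse complement, so that both strands are covered. RefSeq windows on GRCh38.p14, from 250 bases before to 50 bases after the start of a gene, were available for 378 of the rises and 118 of the falls. A match was found in 6 windows of rises (1.59%), in 21 of 11538 windows of tested genes (0.182%), in 74 of all 27305 windows (0.271%) and in 0 windows of falls. A match is a description of letters and not a binding site, and sites with a spacer, in introns or farther away were not searched. The sequences below are shown because they are the matches among the rises, 5′ to 3′ on the strand of the gene, with the match in capitals. LNCTAM34A is the only one without a mismatch, and MORC4 and AEN also have their match before the start; GLS2, DOCK8 and ACTA2 have it just after, and for these the match alone is printed.
LNCTAM34A: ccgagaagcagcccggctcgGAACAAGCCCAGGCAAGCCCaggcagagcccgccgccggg
AEN: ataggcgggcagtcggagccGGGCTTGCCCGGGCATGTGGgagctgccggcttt
MORC4: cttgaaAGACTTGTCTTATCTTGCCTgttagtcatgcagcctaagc
GLS2: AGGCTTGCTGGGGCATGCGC
DOCK8: GCGCTTGGCTGGGCATGTTC
ACTA2: TGGCTTGTCAGGGCTTGTCC

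On GRCh38.p14 the printed stretch of LNCTAM34A is chr1:9182124-9182183 on the plus strand, with the match 60 to 41 bases before the start. That of AEN is chr15:88621286-88621339 on the plus strand, with the match 34 to 15 bases before the start, and that of MORC4 is chrX:107000417-107000462 on the minus strand, 244 to 225 bases before the start. The matches of GLS2 (chr12:56488113-56488132, minus strand), DOCK8 (chr9:214879-214898, plus strand) and ACTA2 (chr10:88991309-88991328, minus strand) begin 30, 15 and 10 bases into the transcript. AEN, a nuclease of apoptotic nuclei, had 199, 209 and 202 CPM in WT and 155, 141 and 145 CPM in Ctrl. MORC4, a chromatin ATPase, had 40.9, 37.5 and 37.9 CPM in WT and 24.8, 24.2 and 22.7 CPM in Ctrl. ACTA2, smooth muscle actin, had 9.86, 12.2 and 8.94 CPM in WT and 4.67, 4.56 and 5.75 CPM in Ctrl. It overlaps FAS, a death receptor gene on the other strand that rose 1.57-fold, and reads of this pair cannot be told apart where they overlap. Of the 6 genes, 5 are outside the established target list used here, AEN being the exception.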

How the data were processed

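Total RNA of H1299 cells was made into Illumina libraries, per the labels' protocols. The submitters' processing notes list Trimmomatic 0.39, STAR 2.7.10a and GRCh38, without their roles. Which counter, annotation and strand setting were used is not given in the sources used here. Per gene ID, the authors deposited raw counts, unscaled as far as their values show. The 6 WT and Ctrl libraries were fitted with edgeR 4.0.16 in R 4.3.3: filterByExpr, TMM scaling, glmQLFit and glmQLFTest, Benjamini-Hochberg adjustment and a threshold of 0.05. CPM values are TMM-scaled. Replicates of a group differed by more than sampling noise, and each library counted as 1 replicate. DESeq2 1.42.0 and 15 other alternatives were run, and the procedure was tested on simulated data. Symbols came from a table of gene names, positions and transcript GC content from GENCODE 29, and promoter windows from RefSeq. Figures were drawn with matplotlib.

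The members and the lists were chosen with earlier results of these data known. Lists built from symbol patterns were limited to protein-coding genes after values were seen. Genes are named from those that a rule gives, not all of which appear in the text: the 30 largest folds and 12 largest CPM changes in each direction, called genes with a symbol and no Ctrl reads, and up to 6 called members per list and direction by adjusted p (in lists with no call, 2 with the smallest p). Genes beyond it were chosen after their values were seen, among them the members of groups said to be assembled in that way. For genes with at most 10 Ctrl reads, ratios of reads per total count carry exact 95% intervals. The level of the overexpressed gene and certain other results are not reported here, and their genes are counted in the totals.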

Additional observations from a re-analysis of the deposited data

How the results depend on the processing

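The count of changed genes (665) was 269 when all 15 libraries shared the estimate of spread, 190 when changes were tested against 1.5-fold with glmTreat, and 1645 with a replicate block. Rises (524) numbered 267, 187 and 894 under the same 3 settings, and falls (141) numbered 2, 3 and 751. Falls also moved to 28 with the GC trend removed and to 295 with no filter on low counts. Leaving out 1 library gave 356 to 1381 changed genes, 321 to 723 rises and 31 to 658 falls. DESeq2 called 526 rises and 194 falls, RLE scaling 524 and 140, upper-quartile scaling 537 and 126, a minimum mean log2 CPM of 1 gave 404 and 109, and the GC trend removed together with a replicate block gave 736 and 177. Under all 16 alternatives 97 of the rises and 0 of the falls were called. No named gene changed direction.

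The labels do not say that equal replicate numbers mark a shared culture or day. Deviations of same-numbered libraries correlated at 0.196, 0.420 and 0.032 over 11808 genes, against a level of 0.1 set for a pair. WT 1 with Ctrl 1 and WT 2 with Ctrl 2 passed that level, and each was the best match of its WT library. WT 3 did not pass with Ctrl 3 and correlated best with Ctrl 1, at 0.264. The numbers were not taken to pair the samples in the main fit, but these values do not settle whether some of them do. With the replicate block, the 524 rises and the 141 falls were all still called, and 19 of 44 interferon-stimulated genes were called lower around a median of -0.32. A count of 0 allows up to 0.185 CPM in the shallowest library, which limits what can be said of rises from near 0.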
